A study of Mus musculus with 6 samples.

Results

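The 9 myelin genes Mbp, Mog, Mag, Mobp, Cldn11, Cnp, Mal, Ermn and Opalin were followed by droplet single-cell RNA sequencing in 3 tissues of the mouse stress axis. They were taken by symbol from the gene table, which listed each of them 1 time among 27998 genes. The mice were C57BL/6, a common inbred strain, 10 weeks old, and the tissues were adrenal glands, pituitaries and hand-dissected tissue around the paraventricular nucleus (PVN), the hypothalamic site that starts the hormonal stress response. Mice had either gone through 21 days of chronic social defeat stress, in which a mouse is repeatedly attacked by an aggressive one, or were unstressed controls. Each tissue and condition had 1 library, made from 1 pool of 5 mice, so the mice of a pool cannot be told apart and no test between the conditions is possible. All stress and control values therefore compare 1 pool with 1 pool, and their 95% intervals cover counting error only.

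Myelin is the stacked membrane that oligodendrocytes wrap around axons in the brain and spinal cord and that Schwann cells make in peripheral nerves. Oligodendrocyte precursors, which divide and carry the growth factor receptor Pdgfra, pass through a committed stage marked by Gpr17 before they mature and make myelin. The transcription factors Sox10, Olig2, Nkx6-2 and Myrf act along this path, and Myrf is needed for mature oligodendrocytes to switch on myelin genes. The pituitary and the adrenal gland hold no oligodendrocytes in their hormone-making tissue, although some myelin genes, such as Mal and Cnp, are known to be used by other cell types.

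The 9 genes fall into groups by where their proteins sit. Mbp, the basic protein that holds the cytoplasmic faces of compact myelin together, lies on chromosome 18 (ENSMUSG00000041607, 82475146 to 82585637, plus strand). Mobp, a second small basic protein of compact myelin, lies on chromosome 9 (ENSMUSG00000032517, 120149707 to 120181484, plus strand). Mal, a proteolipid of lipid rafts that also serves apical transport in epithelia, lies on chromosome 2 (ENSMUSG00000027375, 127633226 to 127656695, minus strand), and Cldn11, the claudin of the tight junctions between myelin layers, lies on chromosome 3 (ENSMUSG00000037625, 31149920 to 31164324, plus strand). Cnp, the cyclic nucleotide phosphodiesterase of non-compact myelin, lies on chromosome 11 (ENSMUSG00000006782, 100574904 to 100591729, plus strand).

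Mag, the adhesion protein of the innermost myelin layer facing the axon, lies on chromosome 7 (ENSMUSG00000036634, 30899176 to 30914873, minus strand), and Mog, an immunoglobulin-family protein of the outermost layer, on chromosome 17 (ENSMUSG00000076439, 37010743 to 37023398, minus strand). Ermn, an actin-binding protein of late oligodendrocytes, lies on chromosome 2 (ENSMUSG00000026830, 58045113 to 58052864, minus strand), and Opalin, a membrane glycoprotein of oligodendrocytes, on chromosome 19 (ENSMUSG00000050121, 41061710 to 41077113, minus strand). Coordinates are of GRCm38 and annotate all 9 as protein-coding. Mobp shares its strand with the overlapping Gm38642, so a split of reads between them is uncertain, and Mbp, Mog, Cnp and Ermn overlap a gene on the other strand.

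The 250 bases upstream of the annotated RefSeq start were available for 8 of the 9 genes on GRCm38.p6. They were searched on both strands for the core of the SOX factors' binding motif, ACAAAG or its reverse complement CTTTGT, because Sox10 belongs to that family. Of 32851 such mouse promoter windows, 5408 (16.5%) held at least 1 match, against 4 of the 8 myelin genes (Mag, Mobp, Cnp and Opalin). The first share counts windows, while the other counts genes with a match in any window, and Mag had more than 1 window. Mobp, singled out after its matches were seen, held 6, the most of any window, and was the only window with 6 or more. Windows with at least 3 matches made up 0.137% of all. The windows of Mobp (chr9:120149492-120149741, plus strand), Cnp (chr11:100574689-100574938, plus strand) and Opalin (chr19:41077114-41077363, minus strand) are shown with their matches in capitals, and that of Cldn11 (chr3:31149670-31149919, plus strand) as a myelin gene without one. All are written 5′ to 3′ on the strand of the gene.
Mobp: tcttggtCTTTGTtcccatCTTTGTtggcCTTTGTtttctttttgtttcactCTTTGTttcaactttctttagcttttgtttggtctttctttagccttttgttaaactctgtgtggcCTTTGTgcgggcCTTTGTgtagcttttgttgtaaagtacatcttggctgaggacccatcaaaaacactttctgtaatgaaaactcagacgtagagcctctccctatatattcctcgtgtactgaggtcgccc
Cnp: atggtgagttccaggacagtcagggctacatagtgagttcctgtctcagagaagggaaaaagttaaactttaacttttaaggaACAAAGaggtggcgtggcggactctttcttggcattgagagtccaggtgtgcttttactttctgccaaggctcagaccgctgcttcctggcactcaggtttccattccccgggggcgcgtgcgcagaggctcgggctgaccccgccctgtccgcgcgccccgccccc
Opalin: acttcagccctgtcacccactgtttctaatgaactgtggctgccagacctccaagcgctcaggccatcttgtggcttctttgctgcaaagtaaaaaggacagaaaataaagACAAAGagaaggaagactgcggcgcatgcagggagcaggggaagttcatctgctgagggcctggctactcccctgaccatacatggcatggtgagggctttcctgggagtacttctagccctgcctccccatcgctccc
Cldn11: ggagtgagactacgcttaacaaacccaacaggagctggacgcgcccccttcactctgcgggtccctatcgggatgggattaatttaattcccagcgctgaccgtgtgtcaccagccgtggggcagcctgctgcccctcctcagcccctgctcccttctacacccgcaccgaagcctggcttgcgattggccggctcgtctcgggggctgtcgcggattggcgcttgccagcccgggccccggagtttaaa
The core of the Myrf motif, CTGGCAC or GTGCCAG, was present in 4.19% of all windows and in windows of Mag and Cnp. A TATA box written as TATAAA or TTTATA was in 12.4% of all windows and in no window of the 8 genes, and a GC box written as GGGCGG or CCGCCC was in 32.7% of all windows and in that of Cnp. A match describes letters in a window and not a bound site.

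Barcodes of the stress and control libraries numbered 3612 and 3653 (PVN), 5103 and 5202 (pituitary), and 3183 and 2330 (adrenal), with 29059956 to 53244403 UMIs (counted molecules) per library. Filters on cells and doublets left 3459 stress and 3512 control cells for the PVN, 4880 and 4944 for the pituitary, and 2742 and 2161 for the adrenal gland, which were clustered by tissue. Clusters were named from markers that did not include the 9 genes. Pairs of libraries shared 10 to 39 barcodes (0.255% to 0.974%). UMIs count the 3′ end of each molecule once, so levels are given as CPM, a gene's UMIs scaled to the total UMIs of its class, are not divided by gene length, and can be compared between genes only as far as capture is alike.

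In PVN oligodendrocyte-like cells (535 in the stress library and 697 in the control library), all 9 genes were abundant. Mbp was the highest, with 8894 CPM (25945 UMIs) in the stress library and 8852 CPM (32682 UMIs) in the control library. Cnp had 8057 CPM under stress and 8417 CPM in controls, and Cldn11 had 5472 CPM under stress and 5752 CPM in controls. Among all genes detected in the class, Mbp ranked 6 and Cnp 7 in both libraries, and Cldn11 ranked 14 in the stress library and 12 in the control library. Mag had 3935 CPM in the stress library and 4012 CPM in the control library, Mal had 3578 CPM under stress and 3773 CPM in controls, and Mobp had 3312 CPM under stress and 3390 CPM in controls. The lower end was formed by Mog with 2197 CPM under stress and 2369 CPM in controls, Opalin with 1673 CPM under stress and 1781 CPM in controls and Ermn with 1482 CPM under stress and 1492 CPM in controls. The order of the 9 levels was the same in both libraries, and within a library no 2 neighbours in that order had overlapping intervals. Together the 9 genes took 3.86% of the UMIs of the class in the stress library and 3.98% in the control library.

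**Figure D1:**
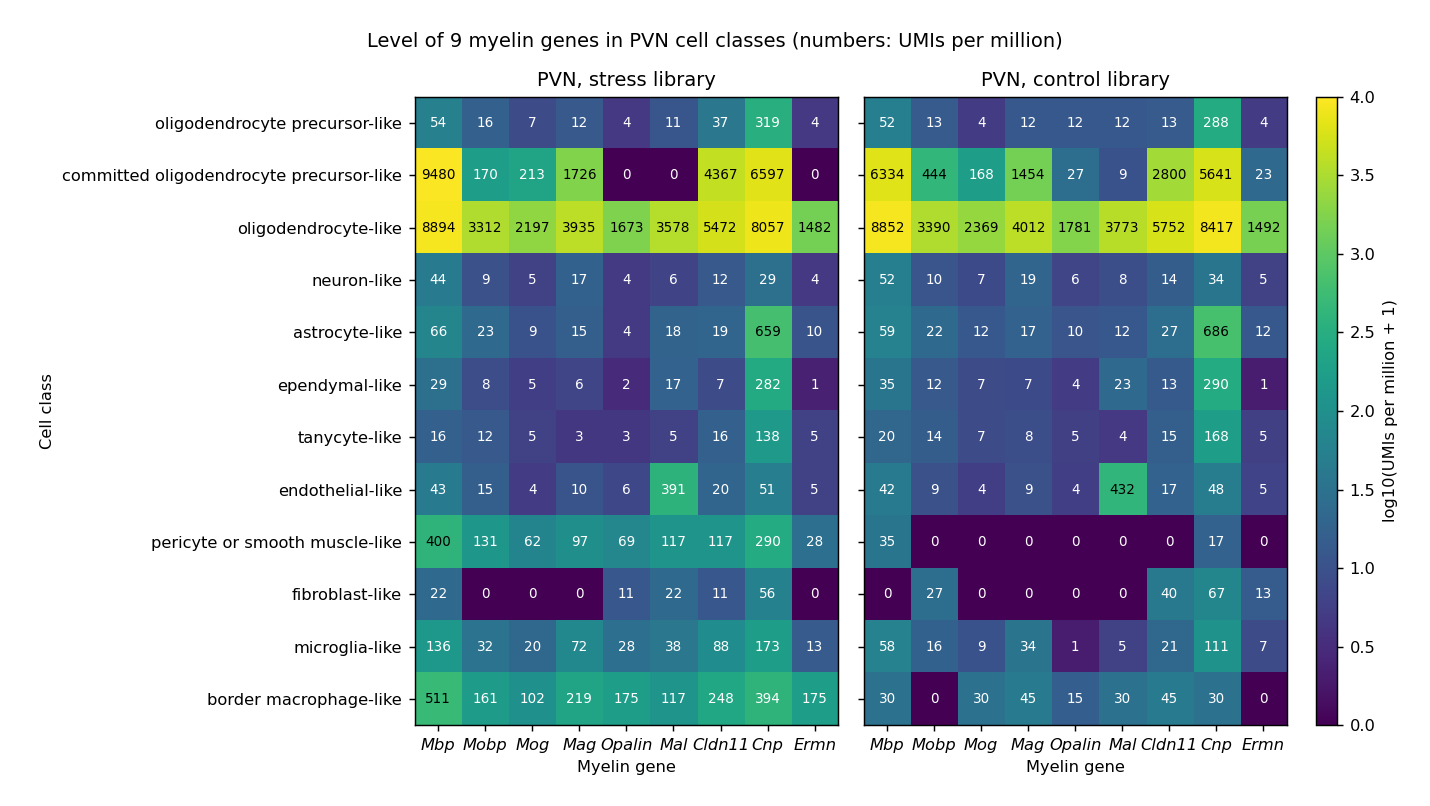
Heat maps of the level of each myelin gene (columns) in each PVN class (rows), stress library on the left and control library on the right. Colour gives log10(CPM + 1) and the printed numbers are CPM. All 9 genes are between 1482 and 8894 CPM in oligodendrocyte-like cells of either library, and only Cnp, Mbp, Cldn11 and Mag come near these levels in committed precursor-like cells.

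Nearly every oligodendrocyte-like cell held UMIs of each gene. The median cell held 45 Mbp UMIs in the stress library and 43 in the control library, 39 (stress) and 40 (control) of Cnp, 26 (stress) and 27 (control) of Cldn11, 11 of Mog in both, and 8 of Opalin in both. With every cell thinned to 2000 UMIs, Mog was seen in 97.9% of stress and 97.0% of control cells, Ermn in 92.5% under stress and 93.3% in controls, and Opalin in 91.8% under stress and 94.4% in controls. In neuron-like cells, which should lack the gene, Opalin was seen in 0.573% under stress and 1.84% in controls at the same depth. The share of a cell's UMIs that came from the 9 genes had a median of 3.72% in the stress library (quartiles 3.36% and 4.12%) and 3.80% in the control library (quartiles 3.43% and 4.24%). Correlations between the 36 pairs of genes across cells were weak, with a median r of 0.11 in the stress library and 0.14 in the control library, and the points share library and depth.

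The balance of the genes differed between the clusters that made up the class. The main cluster (398 stress and 511 control cells) had more Opalin, with 1801 CPM under stress and 1904 CPM in controls against 1317 CPM under stress and 1462 CPM in controls in the second cluster (122 stress and 175 control cells). Mobp had 3492 CPM under stress and 3621 CPM in controls in the main cluster and 2807 CPM under stress and 2755 CPM in controls in the second, and Cnp had 8394 CPM under stress and 8727 CPM in controls against 7173 CPM under stress and 7706 CPM in controls. Mag and Mog went the other way, and Mbp, Cldn11, Mal and Ermn are not given for these clusters. Mag had 3913 CPM under stress and 3860 CPM in controls in the main cluster and 4128 CPM under stress and 4500 CPM in controls in the second, and Mog had 2164 CPM under stress and 2303 CPM in controls against 2343 CPM under stress and 2598 CPM in controls. These clusters were drawn from the same cells, so the values describe them and were not tested.

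The stress library had slightly lower levels of 8 of the 9 genes in oligodendrocyte-like cells, with Mbp as the exception. Mog had the lowest log2 ratio of stress over control, -0.11 (interval -0.16 to -0.06), and Mbp the highest, 0.01 (-0.02 to 0.03). The intervals lay below 0 for 5 genes, Cnp (-0.06), Cldn11 (-0.07), Mal (-0.08), Opalin (-0.09) and Mog, and held 0 for Mbp, Mag, Mobp and Ermn. Of all genes tested in the class, 4.29% had an interval below 0, and intervals narrow as UMIs rise. Of all 8048 genes with at least 50 UMIs in the class, 52.1% were lower in the stress library. The median ratio was -0.06 for the 9 genes and -0.01 for all genes, and none of the 9 reached a log2 ratio of 0.5 in either direction, as 5.95% of all genes did.

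**Figure D2:**
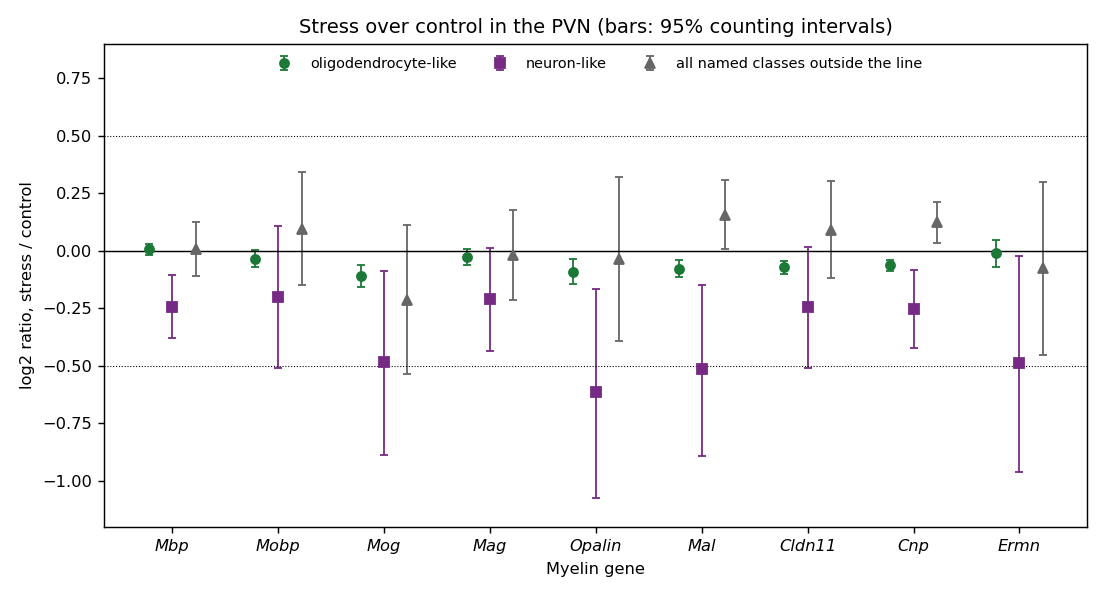
Log2 ratio of stress over control of each myelin gene in oligodendrocyte-like cells, neuron-like cells and all named PVN classes outside the oligodendrocyte line, with exact intervals for counting error and dotted lines at 0.5 and -0.5. In oligodendrocyte-like cells every ratio is between -0.11 and 0.01, while in neuron-like cells all 9 are below 0.

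Lists of other genes of the myelin programme had medians between -0.10 and -0.03, with a wider spread of single genes. Among 22 other genes of the myelin membrane, 7 were higher and 15 lower in the stress library, with a median of -0.04. The highest was Cryab, a small heat-shock protein, at 5632 CPM in the stress library and 4885 CPM in the control library (0.20), and the lowest was Pmp22, a membrane protein best known from peripheral myelin, at 330 CPM under stress and 396 CPM in controls (-0.26). Of 10 genes of myelin lipid synthesis, 4 were higher and 6 lower (median -0.03), from Fa2h, the fatty acid hydroxylase of myelin lipids, at 0.13 to Aspa at -0.18. Of 11 transcription factors of the lineage, 4 were higher and 7 lower (median -0.10), with Nkx2-2 at 0.22, Olig2 at -0.23 and Myrf at 181 CPM in the stress library and 169 CPM in the control library (0.09). Astrocyte genes summed to 280 CPM in the stress oligodendrocyte-like cells and 214 CPM in the control ones, with 7 of 7 higher, and 11 of 11 heat-shock genes were higher there (median 0.50). The part of either in the myelin ratios was not tested.

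Over all kept PVN cells, without regard to class, each of the 9 genes was lower in the stress library. The ratios ran from -0.25 for Mbp to -0.38 for Mog, with a median of -0.31, where 48.3% of 14887 genes were lower. The oligodendrocyte-like class held 87.4% (Cnp) to 97.3% (Opalin) of a gene's UMIs in the stress library and 89.7% to 97.6% in the control library. It made up 15.5% of the kept cells in the stress library (14.3% to 16.7%) and 19.8% in the control library (18.5% to 21.2%). Within the class the median cell held 5061 UMIs under stress and 4987 in controls, and the median ratio of the 9 genes was -0.06. Fewer oligodendrocytes in the tissue and fewer recovered by dissociation cannot be told apart.

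Along the oligodendrocyte line the genes reached different shares of their level in oligodendrocyte-like cells. In precursor-like cells (160 stress and 164 control cells, with Pdgfra at 727 CPM under stress and 873 CPM in controls) Cnp was the one clearly present, at 319 CPM (266 UMIs) in the stress library and 288 CPM (223 UMIs) in the control library, or 3.96% of its level in oligodendrocyte-like cells under stress and 3.42% in controls. With cells thinned to 2000 UMIs, 43.1% of stress and 42.7% of control precursor-like cells held Cnp, against 6.49% of stress and 5.45% of control neuron-like cells. Mbp had 54.0 CPM under stress and 51.7 CPM in controls there (45 UMIs under stress and 40 in controls), 0.61% of its oligodendrocyte level under stress and 0.58% in controls. That is close to the level of Mbp in the PVN cells outside the line, at 0.555% in both libraries. The other 7 genes were at 0.16% to 0.68% of their oligodendrocyte level.

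In committed precursor-like cells (14 stress and 25 control cells) the genes split. Mbp had 9480 CPM in the stress library and 6334 CPM in the control library, 107% of its oligodendrocyte level under stress and 71.5% in controls. Cnp had 6597 CPM under stress and 5641 CPM in controls (81.9% under stress and 67.0% in controls), and Cldn11 had 4367 CPM under stress and 2800 CPM in controls (79.8% under stress and 48.7% in controls). Mag stood between, at 1726 CPM under stress and 1454 CPM in controls (43.9% under stress and 36.2% in controls). Mog had 213 CPM under stress and 168 CPM in controls (9.70% under stress and 7.08% in controls) and Mobp 170 CPM under stress and 444 CPM in controls (5.15% under stress and 13.1% in controls). Mal, Ermn and Opalin had 0 UMIs in the stress cells, which allows up to 21.3 CPM, and 2, 5 and 6 UMIs in the control cells. Mbp, Cnp, Cldn11 and Mag were thus at a higher share of their oligodendrocyte level than Mog and Mobp, and Mal, Ermn and Opalin at no more than 1.53% of it. These values rest on few cells, since 5 cells held 75.6% of the UMIs of the 9 genes in the stress library and 71.2% in the control library, and 96 of the 98 control Mobp UMIs came from 1 cell.

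**Figure D3:**
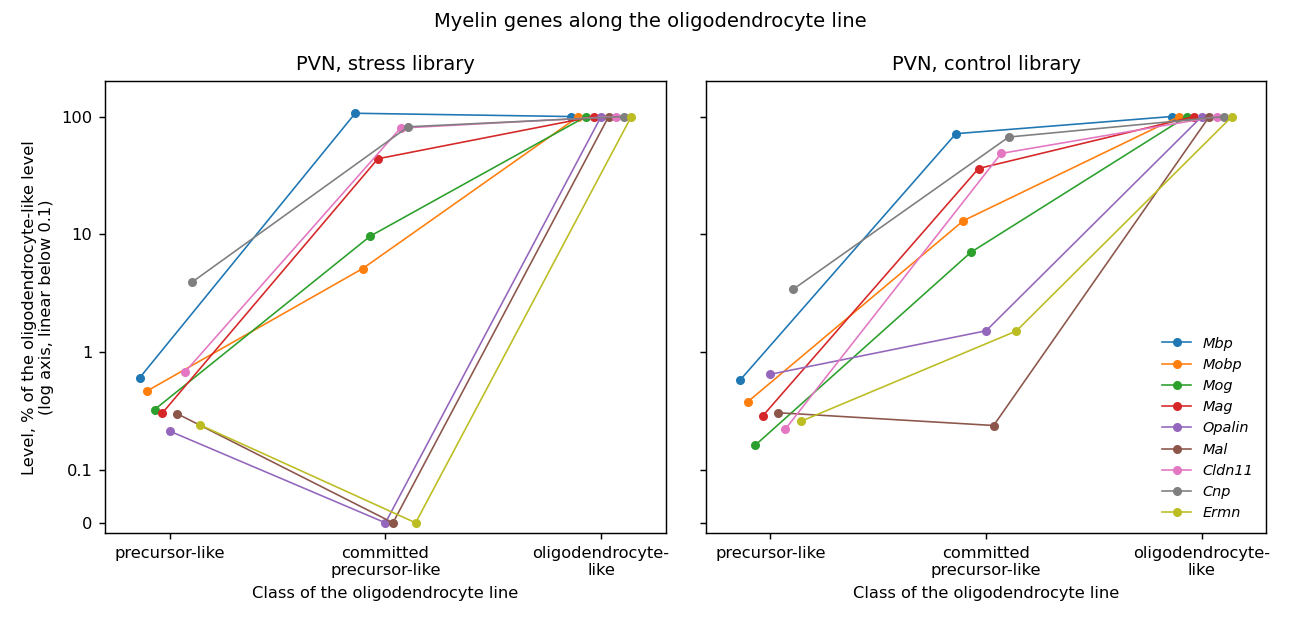
Level of each myelin gene in precursor-like, committed precursor-like and oligodendrocyte-like cells as a percentage of its level in oligodendrocyte-like cells of the same library (log axis, linear below 0.1), stress library on the left and control library on the right. Cnp alone is above 3% in precursor-like cells, and Mbp, Cnp, Cldn11 and Mag are at 36.2% to 107% in committed precursor-like cells.

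Between the libraries, 6 of the 9 genes had at least 50 UMIs in committed precursor-like cells, and 1 of the 6, Mobp, was lower in the stress library, where 54.2% of 1415 genes were. Past a log2 ratio of 0.5 were Mbp at 0.58 (0.47 to 0.69), Cldn11 at 0.64 (0.48 to 0.81) and Mobp at -1.36 (-2.09 to -0.73), 3 of 6 where 21.3% of genes were past it. Mobp had 24 UMIs in the stress library and 98 in the control library, nearly all of the 98 from 1 cell. Its ratio, its interval and its place in both counts rest on that cell. The ratios of Mbp and Cldn11 also rest on few cells, 14 in the stress library and 25 in the control library. Their intervals hold no spread between cells. The median of the 6 genes was 0.30, beside -0.04 for all genes. Gpr17, the marker of the stage, had 1108 CPM in the stress library and 1839 CPM in the control library, and Myrf had 263 CPM under stress and 113 CPM in controls. Microglial genes summed to 1065 CPM in the stress cells and 77.0 CPM in the control cells, and their part was not tested.

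In precursor-like cells only Cnp and Mbp had at least 50 UMIs, and their ratios were 0.15 (-0.11 to 0.41) and 0.06 (-0.58 to 0.72), neither lower in the stress library, where 51.7% of 5946 genes were, and neither past 0.5, where 9.65% were. Cldn11 had 31 UMIs in the stress library and 10 in the control library, a ratio of 1.48 (0.46 to 2.72), and 1 stress cell held 14 of the 31.

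Outside the oligodendrocyte line (2676 stress and 2558 control PVN cells), 7 of the 9 genes were at 0.26% to 0.56% of their oligodendrocyte level. Mbp was at 0.555% in both libraries, Mag at 0.450% under stress and 0.447% in controls, Mobp at 0.358% under stress and 0.327% in controls, and Ermn at 0.328% under stress and 0.344% in controls. Opalin was at 0.323% under stress and 0.311% in controls, Cldn11 at 0.294% under stress and 0.262% in controls, and Mog at 0.282% under stress and 0.303% in controls. Cnp, at 1.12% under stress and 0.987% in controls, and Mal, at 0.896% under stress and 0.762% in controls, stood above the others. Of the 9 genes, 4 were lower in the stress library, where 47.1% of 14593 genes were, and the median ratio of 0.01 equalled that of all genes. None passed 0.5, which 5.4% of genes did. With no doublets left out all 9 were lower, with a median of -0.43.

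Among these cells Cnp was highest in astrocyte-like cells and Mal in endothelial-like cells. In astrocyte-like cells (374 stress and 212 control cells) Cnp had 659 CPM under stress and 686 CPM in controls, 8.18% of its oligodendrocyte level under stress and 8.15% in controls, and a log2 ratio of -0.06. At 2000 UMIs per cell, 73.3% of stress and 72.2% of control astrocyte-like cells held Cnp, while 9.63% under stress and 8.49% in controls held Mbp, which is more abundant in oligodendrocytes. Ependymal-like cells had 282 CPM of Cnp under stress and 290 CPM in controls and tanycyte-like cells 138 CPM under stress and 168 CPM in controls. In endothelial-like cells (239 stress and 179 control cells) Mal had 391 CPM under stress and 432 CPM in controls, 10.9% of its oligodendrocyte level under stress and 11.4% in controls, with a ratio of -0.15 (-0.32 to 0.03). Thinned to the same depth, 46.0% of stress and 55.3% of control endothelial-like cells held Mal, against 1.15% of stress and 1.14% of control neuron-like cells. Opalin at that depth was in 0.535% of stress and 2.83% of control astrocyte-like cells and in 1.26% of stress and 1.68% of control endothelial-like cells.

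In neuron-like cells (1571 stress and 1577 control cells) the 9 genes were not at 1 common fraction. Mbp was at 0.492% of its oligodendrocyte level under stress and 0.585% in controls, Mag at 0.423% under stress and 0.480% in controls, and Cnp at 0.358% under stress and 0.407% in controls. Mobp, Ermn, Mog, Opalin and Cldn11 were at 0.220% to 0.269% in the stress library and 0.248% to 0.346% in the control library, and Mal was lowest at 0.160% under stress and 0.217% in controls. Of 13 neuron clusters, Mbp lay above the percentage of the summed UMIs of Mog, Mobp, Cldn11, Ermn and Opalin in 13 in the stress library and 11 in the control library, Mag in 12 (stress) and 9 (control), and Cnp in 12 (stress) and 11 (control), but Mal in 1 (stress) and 2 (control). Between the libraries all 9 were lower in the stress neurons, where 44.2% of 12917 genes were, with a median of -0.25 beside 0.02 for all genes. Opalin (-0.61) and Mal (-0.52) were past 0.5, as 4.14% of genes were, but the ratio of Mal was 0.0055 with cells thinned to 2000 UMIs. Microglial genes in the same neurons were also lower, 8 of 8 with a median of -0.38.

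In microglia-like cells (171 stress and 216 control cells) the levels turned on a few cells. Mbp had 136 CPM in the stress library and 57.6 CPM in the control library (log2 ratio 1.23), Mag 71.7 CPM under stress and 34.0 CPM in controls (1.07), Cldn11 87.8 CPM under stress and 20.6 CPM in controls (2.07), and Cnp 173 CPM under stress and 111 CPM in controls (0.63). These were the genes with at least 50 UMIs, and all 4 were past 0.5, where 13.7% of 4274 genes were. In the stress library 5 cells held 65.1% of the UMIs of the 9 genes, against 8.63% in the control library. An alternative chosen after seeing the data dropped the 1% of named PVN cells outside the line with the highest oligodendrocyte marker share. Those markers belong to the same cell type as the members, so lower ratios could follow from the choice itself. Without these cells the ratios were 0.03 for Mbp, 0.18 for Mag, -0.03 for Cldn11 and -0.18 for Cnp. With no doublets left out they were -0.78, -0.32, -0.32 and -0.35 in the same order, so the direction turned. Border macrophage-like cells (18 stress and 14 control cells) had 511 CPM of Mbp under stress and 29.9 CPM in controls, and pericyte or smooth muscle-like cells (34 stress and 15 control cells) had 400 CPM under stress and 34.9 CPM in controls. In the stress library 5 cells held 95.8% of the myelin UMIs of the first class and 93.7% of the second.

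Across the 60 profiles of classes and libraries in the 3 tissues, the 9 genes followed their own mean to different degrees. As a description over profiles that share libraries, Mog had r = 0.972 with the mean, Mobp 0.957 and Opalin 0.917, and Mal was lowest at 0.585 and Cldn11 next at 0.806. Of 16579 other genes, those most like the mean included Tmem88b (0.908), Itgad (0.862), Nkx6-2 (0.844), Myrf (0.839), Hapln2 (0.834), Fa2h (0.829), Sgk2 (0.827), Stmn4 (0.820) and Gpr37 (0.814). Hapln2, Fa2h and Gpr37 had served to name the class.

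In the pituitary, 4 of the genes were nearly absent and the others were low. Mog, Mobp, Ermn and Opalin had 0 or 1 UMI in each library. Mbp had 4.70 CPM in the stress library and 5.70 CPM in the control library (238 UMIs under stress and 271 in controls), Cnp 9.87 CPM under stress and 9.43 CPM in controls, Mal 4.38 CPM under stress and 4.17 CPM in controls, and Cldn11 10.0 CPM under stress and 7.58 CPM in controls (508 UMIs under stress and 360 in controls). Mag had 24 UMIs under stress and 23 in controls. The 4 genes with at least 50 UMIs had a median ratio of 0.07, beside -0.11 for all genes, and 1 of the 4 was lower in the stress library, Mbp at -0.28 (-0.54 to -0.02), where 71.6% of 14137 genes were. None was past 0.5, which 7.89% of genes were. The other scalings moved the median of all genes there by 0.107 and 0.108.

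Pituitary Cldn11 was concentrated in pericyte or fibroblast-like cells (89 stress and 73 control cells). They had 844 CPM (364 UMIs) in the stress library and 612 CPM (173 UMIs) in the control library, a ratio of 0.46 (0.20 to 0.73), where 14.8% of 2214 genes were past 0.5. All of it was in 1 of the 2 clusters of the class. Over all pituitary cells the ratio of Cldn11 was 0.40 (0.21 to 0.60), and without this class, an alternative chosen after seeing the data, it was -0.46. Somatotrope-like cells, the growth hormone cells, had 2.44 CPM under stress and 3.71 CPM in controls (-0.61, -1.02 to -0.21). By cluster, the ratio was 0.39 (-0.25 to 1.01) in the one with 830 stress and 1329 control cells, -1.28 in the one with 1109 stress and 869 control cells, and -1.06 in the one with 996 stress and 935 control cells. Mal was highest in endothelial-like cells, at 110 CPM in the stress library and 135 CPM in the control library, and in stem or folliculostellate-like cells, at 72.3 CPM under stress and 74.0 CPM in controls. Cnp was highest in endothelial-like cells (58.2 CPM under stress and 52.7 CPM in controls), macrophage-like cells (54.9 CPM under stress and 61.9 CPM in controls) and stem or folliculostellate-like cells (45.9 CPM under stress and 37.3 CPM in controls).

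**Figure D4:**
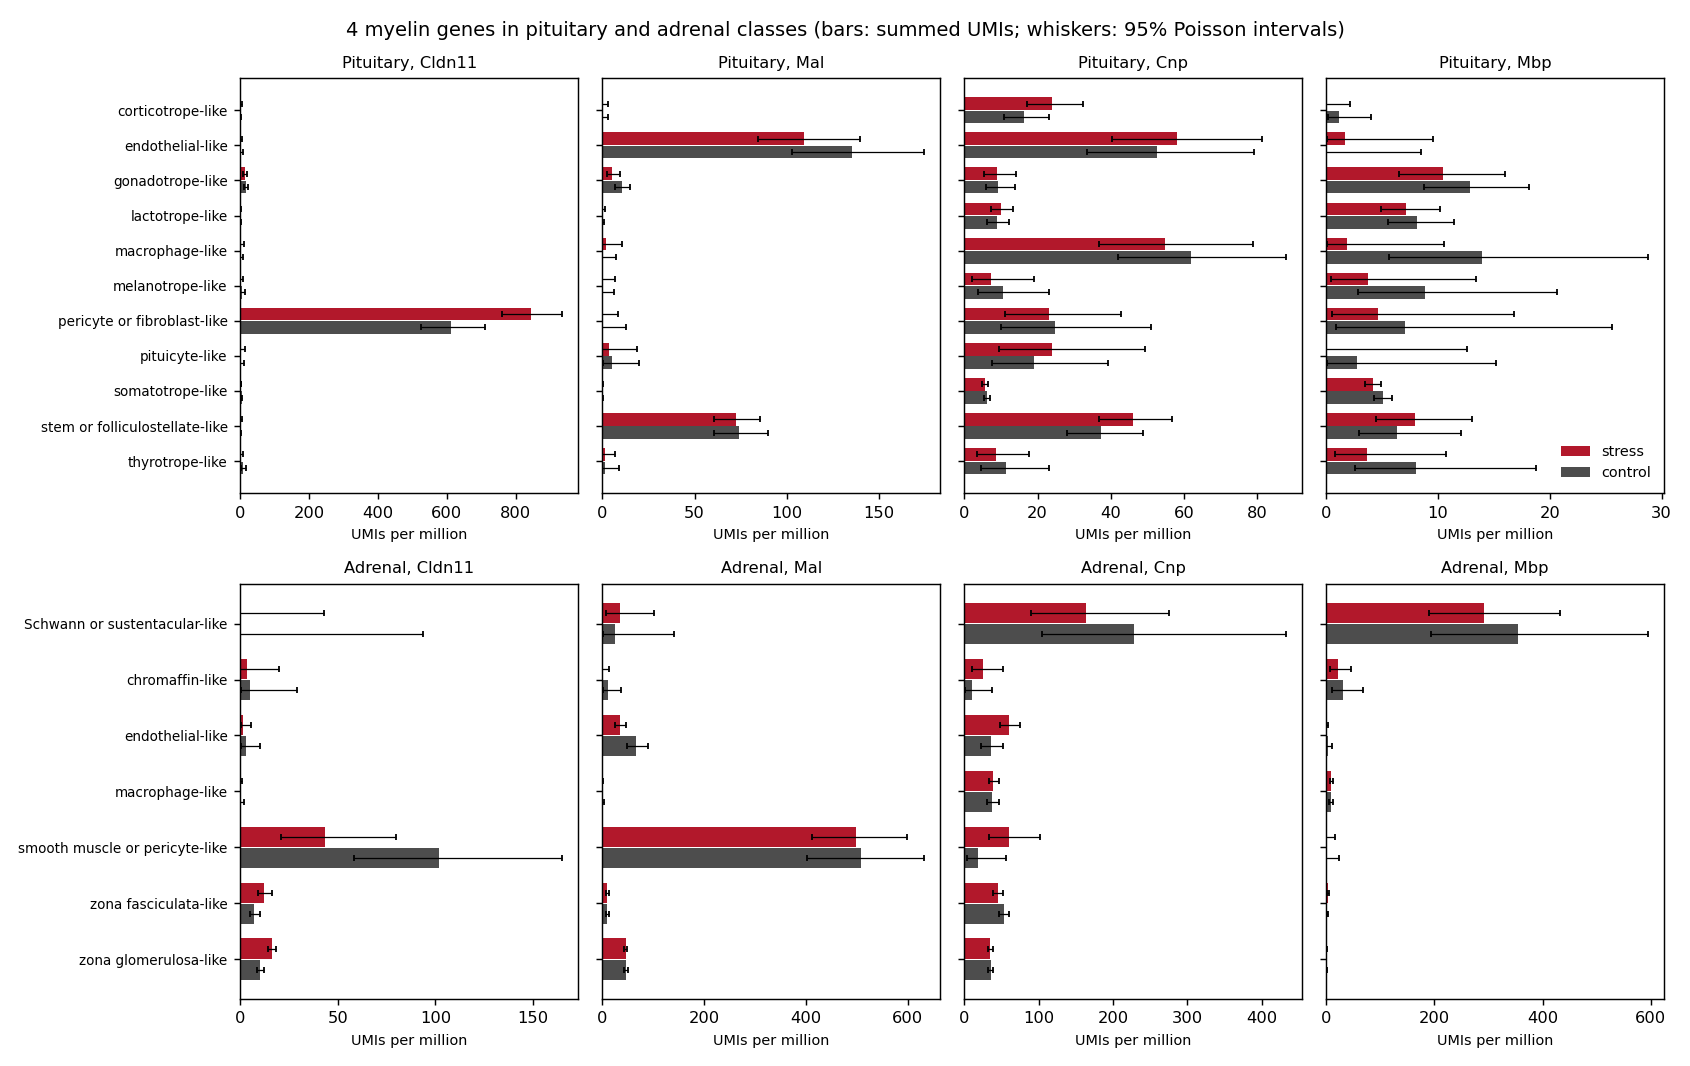
Level of Cldn11, Mal, Cnp and Mbp (CPM) in the classes of the pituitary and the adrenal gland, stress and control libraries, with exact Poisson intervals. Pituitary Cldn11 is highest in pericyte or fibroblast-like cells and adrenal Mal in smooth muscle or pericyte-like cells.

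In the adrenal gland, Mog, Mobp, Ermn and Opalin had 0 UMIs in both libraries, which allows up to 0.0974 CPM in the stress library and 0.108 CPM in the control library. Cnp had 41.5 CPM under stress and 42.9 CPM in controls (-0.05), and Mal 33.4 CPM under stress and 34.2 CPM in controls (-0.03). Mbp had 3.25 CPM under stress and 2.31 CPM in controls (100 UMIs under stress and 64 in controls, 0.49, 0.02 to 0.97), and Mag had 1.49 CPM under stress and 0.866 CPM in controls (46 UMIs under stress and 24 in controls, 0.77, 0.04 to 1.56). Most Mag UMIs, 41 of 46 in the stress library and 23 of 24 in the control library, were in macrophage-like cells, where the level was 11.5 CPM under stress and 11.1 CPM in controls (ratio 0.04). These made up 18.3% of the kept adrenal cells under stress and 14.5% in controls. The ratio of Mbp was 0.20 in macrophage-like cells and -0.30 in Schwann or sustentacular-like cells. It was 2.20 in 1 zona fasciculata-like cluster and -0.69 in the other, both with few Mbp UMIs. Of the 5 genes with at least 50 UMIs, Cldn11 and Mag were past 0.5, where 12.7% of 12854 genes were, and the median was 0.49 beside 0.02 for all genes. It was 0.20 with cells thinned to 2000 UMIs and 0.12 as a mean of per-cell CPM. Cnp and Mal were lower in the stress library, 2 of 5 where 45.8% of genes were.

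Cldn11 was higher in the adrenal stress library, at 14.3 CPM (440 UMIs) in the stress library and 8.84 CPM (245 UMIs) in the control library, a ratio of 0.69 (0.46 to 0.92). Zona glomerulosa-like cells (1033 stress and 844 control cells) were named from markers of the outer cortex. In them Cldn11 had 16.3 CPM under stress and 10.2 CPM in controls (0.66, 0.35 to 0.99), where 4.33% of 10901 genes were higher by 0.5 or more. In zona fasciculata-like cells, named from markers of the glucocorticoid-making cortex (343 stress and 385 control cells), it had 12.3 CPM under stress and 7.24 CPM in controls (0.76, 0.13 to 1.41), where 4.52% of 9097 genes were. The first class held 37.7% of kept adrenal cells under stress and 39.1% in controls, and the other 12.5% under stress and 17.8% in controls. Whether the classes match the zones was not tested. Of 11 clusters with at least 20 Cldn11 UMIs, 7 were higher in the stress library with intervals above 0, and the intervals of the other 4 held 0. This floor is lower than the 50 UMIs used for counts of genes. At 50 UMIs, 5 clusters remained, and 4 of them were higher in the stress library with intervals above 0. The other, a zona glomerulosa-like cluster, was near equal in CPM, and its ratio was above 0 only through the added 0.5 UMI. How often other genes show such a pattern over clusters was not counted. The highest level was in smooth muscle or pericyte-like cells, at 43.4 CPM under stress and 102 CPM in controls (10 UMIs under stress and 16 in controls). Their cluster was lower in the stress library and was 1 of the 4 whose interval held 0, with an upper end of only 0.00096. Unnamed cells had 21.3 CPM under stress and 8.80 CPM in controls (1.27). The libraries filled the zona glomerulosa-like clusters unevenly, with 574 stress and 300 control cells in the largest and 141 stress and 250 control cells in another, where Cldn11 had 11.5 CPM under stress and 11.6 CPM in controls. The Cldn11 ratio was 1.17 in the largest and 1.28 in the one with 99 stress and 116 control cells. In the remaining clusters of the class it was 0.009, -0.017 and -0.33, each with an interval that held 0. Mitochondrial UMIs made up 6.34% of UMIs under stress and 6.22% in controls in zona glomerulosa-like cells and 10.6% under stress and 8.38% in controls in zona fasciculata-like cells, and their part was not tested. Macrophage-like cells (503 stress and 313 control cells) had 0 Cldn11 UMIs, which allows up to 0.84 CPM under stress and 1.44 CPM in controls. Thinned to 2000 UMIs, 2.61% of stress and 1.66% of control zona glomerulosa-like cells held Cldn11.

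**Figure D5:**
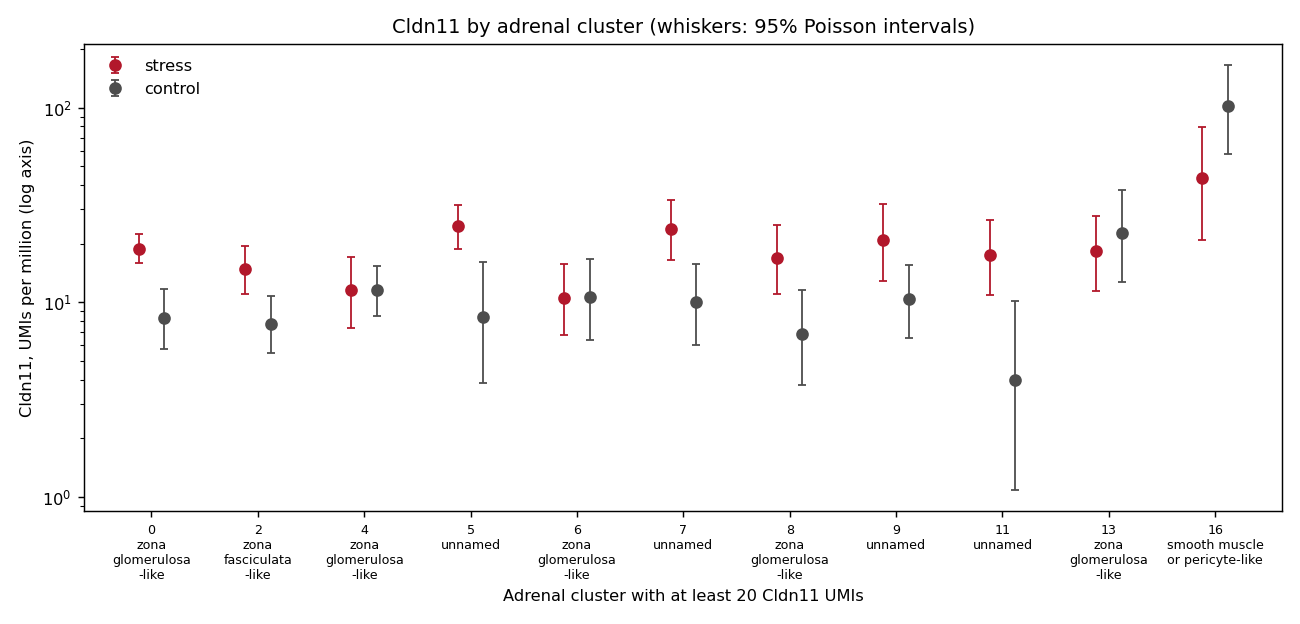
Level of Cldn11 (CPM) in each adrenal cluster with at least 20 of its UMIs, stress and control libraries, with exact Poisson intervals. In 7 of 11 clusters the level is higher in the stress library with an interval of the ratio above 0. In none is it lower with an interval below 0, but the interval of the smooth muscle or pericyte-like cluster ends at 0.00096. The floor of 20 UMIs is lower than the 50 used for counts of genes.

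Other adrenal classes used other genes of the list. Mal was highest in smooth muscle or pericyte-like cells (28 stress and 20 control cells), at 499 CPM under stress and 508 CPM in controls, and was near equal in zona glomerulosa-like cells at 45.7 CPM under stress and 45.8 CPM in controls. Endothelial-like cells had 34.9 CPM of Mal in the stress library and 66.9 CPM in the control library (-0.94, -1.55 to -0.33), and 60.3 CPM of Cnp under stress and 35.6 CPM in controls (0.74), where 13.5% of 5610 genes were past 0.5. Schwann or sustentacular-like cells (12 stress and 8 control cells) had the highest Mbp of the gland, 292 CPM (25 UMIs) in the stress library and 355 CPM (14 UMIs) in the control library, with Cnp at 164 CPM under stress and 228 CPM in controls. Mag, Mog and Cldn11 had 0 UMIs in these few cells, which allows up to 35.1 CPM under stress and 76.0 CPM in controls.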

How the data were processed

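The deposited matrices hold unnormalised UMI counts per gene and barcode, and the deposited values are whole numbers. The submitters' processing notes name Cell Ranger 2.1.1, Scanpy and mm10. Per the labels' protocols, mice were perfused, papain served to dissociate brain tissue and pituitaries, collagenase served for adrenals, and both conditions of a tissue ran on the same chip of the 10x v2 kit. For cell calling settings, the annotation behind the counts and its use of strand, the answer is not given in the sources used here.

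Barcodes under 200 genes or over 25% mitochondrial UMIs were dropped. Doublets were scored against simulated ones (2 per cell), and a fixed rate of 0.8% per 1000 cells decided how many of the top scores to remove (stress and control PVN 101 and 105 barcodes, pituitary 207 and 213, adrenal 63 and 39). Cells of a tissue were clustered on 2000 variable genes without the 9 members, with 30 components, 15 neighbours and the Leiden method at resolution 1 (leidenalg 0.10.2). A cluster was named from at least 3 markers seen in at least 10% of its cells. Each such marker had to reach 2 times the lower quartile of its CPM over all clusters, with 1 CPM added to that quartile. The rules that left clusters unnamed were chosen with the clusters in view. Of stress and control cells, unnamed clusters held 2.14% and 1.94% (PVN), 2.54% and 2.89% (pituitary), and 18.9% and 20.5% (adrenal). The names are thus rebuilt and can differ from the study's.

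UMIs were summed per class and library and scaled to CPM, with exact Poisson intervals. Stress was divided by control after adding 0.5 UMI to both sums, and this log2 ratio has an exact conditional 95% interval, while shares of cells have exact Clopper-Pearson intervals. Counts of lower or higher genes used genes with at least 50 UMIs over both libraries, and a limit from a count of 0 is 3 counts. The count of adrenal Cldn11 clusters used a lower floor of 20 UMIs. No p-value was computed, since each group is 1 pool. The ratios and their intervals were tested on simulated Poisson counts of class sums, which hold no spread between cells. Cell filters, doublet scores, clustering and naming were not part of that simulation. Alternatives were edgeR 4.0.16 TMM factors, median-of-ratios factors, no cell or doublet filter, other clusterings, per-cell means, cells thinned to 2000 UMIs and no UMI minimum. The 9 genes are named for the main classes, but the comparison of oligodendrocyte-like clusters gives only some of them. Of each further list, its counts, median, highest and lowest gene and a few of known role are named. The members and lists were chosen with earlier results of these data known. Gene positions came from GENCODE vM21 on GRCm38, and promoter windows from RefSeq on GRCm38.p6. No promoter of Mbp is shown, and 1 gene that the rules would name is not reported here.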

Additional observations from a re-analysis of the deposited data

Results flagged for a closer look

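All kept cells were summed and scaled to CPM for log2 ratios of stress over control. The counting intervals for Mbp, Mag and Cldn11 then lay on opposite sides of 0 in different tissues. The ratio of Mbp was 0.49 in the adrenal, -0.28 in the pituitary and -0.25 in the PVN, so the adrenal ratio exceeded that of the pituitary by 0.77 and that of the PVN by 0.74. In the adrenal and the pituitary the Mbp intervals ended close to 0. The other scalings shifted pituitary ratios by 0.107 and 0.108, with which the pituitary Mbp interval would hold 0. They shifted adrenal ratios by -0.018 and -0.020. The ratio of Mag was 0.77 in the adrenal and -0.30 in the PVN, a difference of 1.07. The ratio of Cldn11 was 0.69 in the adrenal, 0.40 in the pituitary and -0.33 in the PVN, and exceeded that in the PVN by 1.02 in the adrenal and by 0.73 in the pituitary. With 1 pool per tissue and condition these differences were not tested. Within PVN oligodendrocyte-like cells, which made up 15.5% of cells in the stress library and 19.8% in the control library, the ratios were 0.01 for Mbp, -0.03 for Mag and -0.07 for Cldn11. Pituitary Cldn11 had a ratio of -0.46 without pericyte or fibroblast-like cells, and Mag had one of 0.04 within the adrenal macrophage-like cells that held most of its UMIs there. Adrenal Mbp UMIs were spread over several classes. The ratio of Mbp was 0.20 in the macrophage-like cells, which made up 18.3% of kept adrenal cells under stress and 14.5% in controls. It was -0.30 (-1.28 to 0.78) in Schwann or sustentacular-like cells. In 1 zona fasciculata-like cluster it was 2.20 (0.11 to 5.71), with 8 stress and 2 control UMIs. In the other such cluster it was -0.69 (-2.27 to 0.85), with 8 stress and 9 control UMIs. The part of these classes in the adrenal ratio was not tested.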

How the results depend on the processing

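The median log2 ratio of the 9 genes in PVN oligodendrocyte-like cells stayed between -0.07 and -0.05 in 11 settings, and that of the pituitary genes between -0.11 and 0.18. In precursor-like cells the median of 0.10 was 1.00 with no doublets left out and 4.58 with each library clustered alone, over 6 and 4 genes with enough UMIs, but -0.13 as a mean of per-cell CPM, -0.19 with committed precursor-like cells added and -0.30 with cells thinned to 2000 UMIs. In other PVN cells the median of 0.01 was -0.43 with no doublets left out and -0.25 without the 1% of cells with the highest oligodendrocyte marker share. In the adrenal the median of 0.49 was 0.12 as a mean of per-cell CPM and 0.20 with cells thinned to 2000 UMIs. With no minimum on UMIs it was -0.0484 over all 9 genes. Mog, Mobp, Ermn and Opalin had no UMIs in either adrenal library, so their ratios there came only from the added 0.5 UMI and the library totals. Directions turned for Mal in neuron-like cells when thinned (0.0055). In microglia-like cells they turned with no doublets left out, where all 9 genes had enough UMIs and a median of -0.56, with Mbp at -0.78, Mag -0.32, Cldn11 -0.32 and Cnp -0.35, and without the 1% of cells for Cldn11 (-0.0334) and Cnp (-0.18). The cause was not tested. Of 574 other values, 517 moved by less than their counting interval. No paired analysis was possible because the labels carry no replicate numbers and each group has 1 library. With few cells and UMIs, levels of precursors, microglia and minor adrenal classes are limited by depth.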
